A study of Homo sapiens with 21 samples.

Results

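EM2 and EM1 are both clones of SUM149PT, a human inflammatory breast cancer cell line whose cells are labelled as lacking estrogen and progesterone receptors (ER-/PR-). The 3 EM2 libraries were compared with the 3 EM1 libraries, 6 of the 21 libraries of a series that covers 7 SUM149PT lines (Parental and the clones E, EM1, EM2, EM3, M1 and M2) with 3 replicates each. All lines were untreated and grown in the same recommended way, and poly(A) RNA was sequenced from 1 end. The series title concerns an intermediate state of the epithelial-to-mesenchymal transition (EMT), and the EM names stand between E and M. The comparison asks how far 2 such clones differ from each other. Each line is 1 clone, so a difference is a difference between these 2 clones, and how the clones were isolated is not given in the sources used here.

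In EMT, epithelial cells lose adhesion proteins such as E-cadherin and gain vimentin, fibronectin and matrix proteins under transcription factors of the SNAI, ZEB and TWIST families. Cells in an intermediate state carry both programmes at once. Cholesterol, whose synthesis genes are the first group described here, is built from acetyl-CoA through mevalonate and squalene. The genes of that pathway are switched on together by SREBP-2 when sterols are scarce, while the LXR receptors switch on cholesterol export genes when sterols are plentiful.

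Library totals were 27.6 to 44.7 in units of 1e6 expected counts (the reads that RSEM assigns to genes). Replicate 3 stood apart from replicates 1 and 2 in both lines: the mean effective length of genes at 1 TPM (a share of all transcripts, scaled for transcript length) or more was 1757 and 1772 bases in replicate 3 and 1871 to 1944 bases in the other 4 libraries. The labels name no batch, and replicate 3 against replicates 1 and 2 was therefore a term of the test. Both clones matched their label: ESR1, the estrogen receptor gene, stayed at or under 0.89 TPM and PGR at or under 0.05 TPM in all 6 libraries. At that low level ESR1 was itself called lower in EM2, with 439 summed counts in EM1 and 90 in EM2 (log2 fold -2.39; edgeR, BH-adjusted p = 0.00331). Both clones also expressed epithelial and mesenchymal genes together. E-cadherin (CDH1) was at 35.1, 27.0 and 78.4 TPM in EM1 replicates 1 to 3 and at 30.5, 26.8 and 95.1 TPM in EM2. Vimentin (VIM) was at 817, 672 and 629 TPM in EM1 and at 1090, 1321 and 480 TPM in EM2. The clones overlapped for both genes, and neither passed the test (edgeR, BH-adjusted p = 0.743 and 0.234).

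Of 16025 genes tested, 2335 were called, 14.6% (edgeR quasi-likelihood test with the replicate-3 term, BH-adjusted p under 0.05). EM2 had 1076 genes higher than EM1 (6.71%) and 1259 lower (7.86%), and the median log2 fold over all genes was 0.01. The change was at least 2-fold in 1346 called genes and at least 8-fold in 281. Whether replicates were grown as separate cultures is not stated in the labels, and each p-value therefore reflects library-to-library spread, which may be technical. Of 973 genes called from replicates 1 and 2 alone and also tested with all 6 libraries, 952 (97.8%) had the same sign in the pair of replicate 3 libraries, against 69.4% of all genes. A test of whether the clone difference itself depended on the set called 0 genes with edgeR and 0 with limma-voom (556 at an unadjusted p under 0.05 in edgeR), with 1 library of each clone in the replicate-3 set. The count of calls was 906 without EM1 replicate 3, 909 without EM2 replicate 3, 1258 without EM1 replicate 1 and 1495 without EM2 replicate 1. When 1 replicate 3 library is left out, the other is alone in its set and adds nothing to the comparison.

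The third clone of the EM series, EM3, was set against both. EM3 against EM1 gave 142 calls of 16098 genes (0.882%), and EM3 against EM2 gave 2225 of 16229 (13.7%). These comparisons share libraries with EM2 against EM1 and with each other.

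Genes of cholesterol synthesis were lower in EM2 along nearly the whole pathway. All 20 listed genes were tested, 18 were lower and 0 higher (90.0% lower, against 7.86% of all genes), and the median log2 fold was -1.97. For 19 of the 20 every EM2 library lay on one side of every EM1 library, which held for 22.1% of all genes tested. In bulk samples, fewer cells that express a gene and less RNA per cell cannot be told apart.

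The sequences upstream of 4 of these genes are shown as examples because the pathway moved as a group. They are RefSeq promoter sequences of build GRCh38.p14, 200 bases just before the gene's start, written 5′ to 3′ on the gene's strand. Capitals mark CCAAT and its opposite-strand form ATTGG, the box bound by NF-Y, which is known to act beside SREBP-2.
HMGCS1 (chr5:43313413-43313612, minus strand): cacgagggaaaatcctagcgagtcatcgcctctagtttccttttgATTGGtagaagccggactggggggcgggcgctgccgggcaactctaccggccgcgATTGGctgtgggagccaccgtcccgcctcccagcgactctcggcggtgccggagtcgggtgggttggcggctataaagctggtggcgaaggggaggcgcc
MSMO1 (chr4:165327469-165327668, plus strand): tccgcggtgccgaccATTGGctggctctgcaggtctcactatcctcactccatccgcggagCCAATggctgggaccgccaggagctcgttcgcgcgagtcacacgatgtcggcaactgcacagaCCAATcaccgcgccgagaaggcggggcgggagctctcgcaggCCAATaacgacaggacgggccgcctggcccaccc
MVD (chr16:88663092-88663291, minus strand): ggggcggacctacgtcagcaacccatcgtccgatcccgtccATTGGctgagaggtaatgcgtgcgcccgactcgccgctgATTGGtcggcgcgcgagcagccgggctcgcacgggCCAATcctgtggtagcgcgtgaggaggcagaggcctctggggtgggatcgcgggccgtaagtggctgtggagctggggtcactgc
FDPS (chr1:155308666-155308865, plus strand): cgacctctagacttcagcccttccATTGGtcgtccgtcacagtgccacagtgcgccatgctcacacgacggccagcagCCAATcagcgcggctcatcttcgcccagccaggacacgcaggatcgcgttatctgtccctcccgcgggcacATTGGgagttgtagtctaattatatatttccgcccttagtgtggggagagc

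CCAAT was searched on both strands in the full promoter windows of 250 bases before and 50 bases after the start. It was present in 13 of the 15 cholesterol synthesis genes that have an entry (86.7%) and at least 2 times in 10 of them. Among all 27305 genes of the table, 39.7% held it, and 12.9% held it at least 2 times. The motif TCACNCCAC, a spelling of the sterol response element, was in 0 of the 15 and in 1.4% of all genes. A match is a description of letters and was not tested as a binding site.

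Among the enzymes that make mevalonate, HMGCS1, which forms HMG-CoA, was at 240, 112 and 368 TPM in EM1 replicates 1 to 3 and at 12.9, 20.3 and 12.1 TPM in EM2. Every EM2 library was lower than every EM1 library, and the log2 fold was -3.92 ± 0.45 (SE; edgeR, BH-adjusted p = 0.00417). ACAT2, which joins acetyl units in the cytosol, was lower by a log2 fold of -2.28.

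The steps to isoprenoids and squalene followed. IDI1, the isomerase of isopentenyl diphosphate, was at 382, 174 and 241 TPM in EM1 and 36.0, 78.8 and 22.9 TPM in EM2. FDFT1, squalene synthase, was at 382, 225 and 1083 TPM in EM1 and 78.8, 108 and 109 TPM in EM2. EM1 replicate 3 was the highest library for FDFT1, and the clones did not overlap in either gene. MVD, MVK and FDPS, which act on mevalonate and join isoprenoid units, were lower by log2 folds of -2.53, -1.39 and -1.50. PMVK, which acts between MVK and MVD, was at 9.33, 9.32 and 11.4 TPM in EM1 and 10.1, 12.8 and 12.6 TPM in EM2, and was not called (edgeR, BH-adjusted p = 0.35).

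After squalene, the epoxidase SQLE was at 180, 94.1 and 147 TPM in EM1 and 18.8, 26.4 and 13.7 TPM in EM2. That was a log2 fold of -2.77 ± 0.27 (edgeR, BH-adjusted p = 0.00105), with no overlap. SC5D, a desaturase near the end of the pathway, was at 55.9, 50.1 and 35.6 TPM in EM1 and 3.86, 8.69 and 1.81 TPM in EM2. SC5D too was lower in every EM2 library than in any EM1 library. MSMO1 and HSD17B7, which remove and reduce groups on the sterol ring, had log2 folds of -2.82 and -2.53, and the reductase DHCR7 of -1.92. EBP, the isomerase, was lower in each EM2 library than in any EM1 library but missed the threshold at a log2 fold of -0.81 (edgeR, BH-adjusted p = 0.0876).

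**Figure D1:**
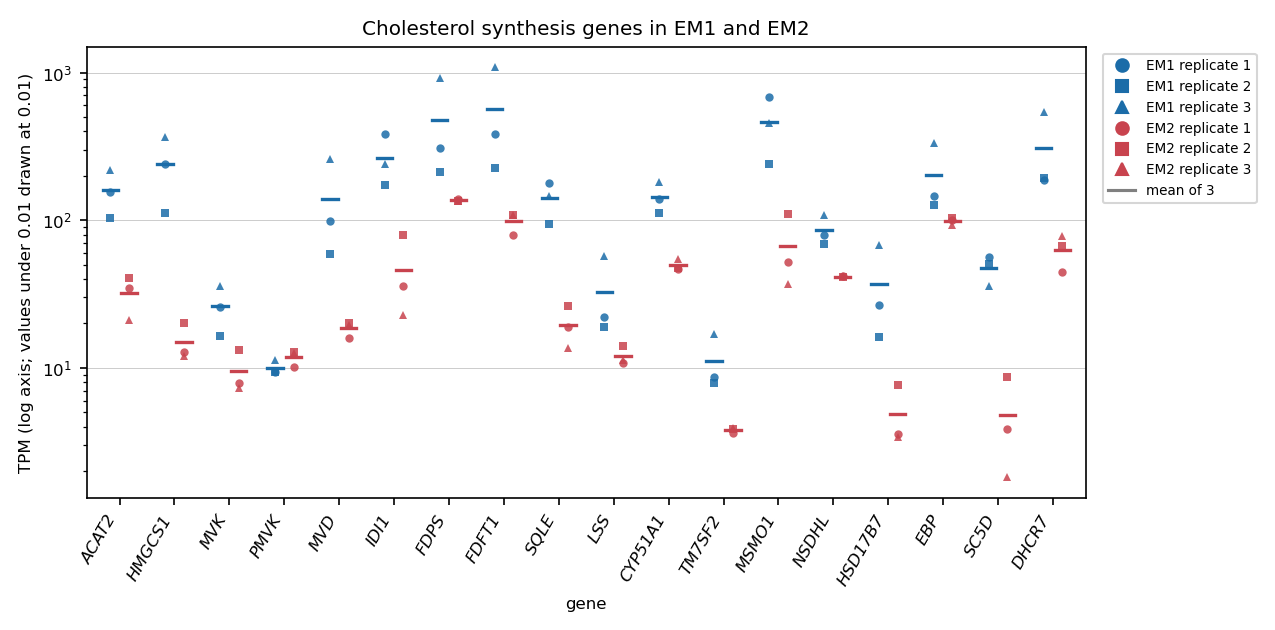
TPM (log axis) of 18 of the 20 cholesterol synthesis genes in pathway order. Blue marks are EM1 and red marks EM2, with 1 symbol per replicate and a bar at the mean of 3; the red marks lie below all blue marks except for PMVK.

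LSS, CYP51A1, TM7SF2 and NSDHL, between squalene and the last steps, were the other lower genes. The median log2 difference of the 20 genes was -1.62 in replicates 1 and 2 and -2.65 between the replicate 3 libraries. With 1 library left out, 10 to 19 of the 20 were called: 10 without EM1 replicate 3 or EM2 replicate 1, and 11 without EM1 replicate 1 or EM2 replicate 3. In all, 8 genes, among them ACAT2, HMGCS1, SQLE, CYP51A1, SC5D and DHCR7, were called whichever library was left out. In EM3, HMGCS1 averaged 194 TPM and SQLE 117 TPM, beside 240 and 140 TPM in EM1 and 15.1 and 19.6 TPM in EM2. Over the whole list the mean log2 TPM was 6.68 ± 0.57 (SD, n = 3) in EM1 and 6.53 ± 0.38 in EM3. It was 4.76 ± 0.28 in EM2, 4.62 ± 0.12 in E, 4.91 ± 0.49 in Parental, 4.56 ± 0.16 in M1 and 4.63 ± 0.56 in M2. EM2 thus lay among those 4 lines, and EM1 and EM3 were the lines with high values.

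Genes around the pathway moved in both directions. Of 18 genes of sterol and fatty acid regulation, 6 were lower (33.3%, against 7.86% of all genes) and 3 higher (16.7%, against 6.71%). SREBF2, which encodes SREBP-2 itself, was at 66.7, 62.7 and 106 TPM in EM1 and 33.8, 47.2 and 60.6 TPM in EM2, a log2 fold of -0.64 ± 0.13 (edgeR, BH-adjusted p = 0.0156). The SREBF2 call was lost without EM1 replicate 3, EM2 replicate 1 or EM2 replicate 3. STARD4, a carrier of cholesterol within the cell, was at 36.2, 23.5 and 57.2 TPM in EM1 and 6.90, 7.36 and 5.88 TPM in EM2. The desaturases FADS2, FADS1 and SCD had log2 folds of -3.04, -1.44 and -1.36, and ACSL3, which activates fatty acids, of -0.94.

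The 3 genes that were higher have been described as LXR targets. Other genes of the list were not sorted by this trait, and LXR activity was not tested. ABCA1, which exports cholesterol, was at 0.46, 0.71 and 0.69 TPM in EM1 and 2.12, 2.05 and 2.26 TPM in EM2, a log2 fold of 1.91 ± 0.19 (edgeR, BH-adjusted p = 0.000713). ABCG1, another exporter, rose from 13 summed counts in EM1 to 437 in EM2, and MYLIP, a ubiquitin ligase, had a log2 fold of 1.46. All 3 had EM2 libraries above every EM1 library. INSIG1, which holds SREBP in the endoplasmic reticulum, and FASN, the fatty acid synthase, had log2 folds of -2.11 and -1.01 and were not called (edgeR, BH-adjusted p = 0.126 and 0.117). Without either replicate 3 library the 6 lower calls became 3.

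The matrix that cells lay down was the second group to differ. Of 30 tested genes for collagens and matrix proteins, 9 were higher (30.0%, against 6.71% of all genes) and 2 lower (6.7%, against 7.86%). The median log2 fold was 0.74. COL6A3, a chain of the collagen VI microfibrils around cells, was at 1.27, 1.88 and 2.14 TPM in EM1 and 52.2, 56.5 and 39.1 TPM in EM2. The log2 fold was 4.86 ± 0.26 (edgeR, BH-adjusted p = 4.73e-05), and no libraries overlapped. Decorin (DCN), a proteoglycan that binds collagen and TGF-beta, was at 7.33, 17.8 and 8.19 TPM in EM1 and 236, 150 and 117 TPM in EM2. Its log2 fold was 3.92 ± 0.49 (edgeR, BH-adjusted p = 0.00594). The clones were again fully separate.

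COL5A1, a fibril collagen, had 12 summed counts in EM1 and 4002 in EM2. Versican (VCAN), a large proteoglycan of loose matrix, was at 3.07, 3.66 and 2.62 TPM in EM1 and 18.6, 36.2 and 13.9 TPM in EM2. COL4A2 of basement membranes, COL7A1 of anchoring fibrils, COL12A1, biglycan (BGN) and TGFBI were the other higher genes, with log2 folds of 0.94, 1.94, 1.92, 3.07 and 0.78. CTHRC1 and the lysyl oxidase LOXL4 were lower (-1.38 and -4.23 log2), and neither was called without EM1 replicate 3 or EM2 replicate 3. COL1A1, the main fibrillar collagen, was at 1.62, 3.09 and 9.67 TPM in EM1 and 29.02, 41.6 and 11.6 TPM in EM2. Its EM2 libraries were all above EM1, but it was not called (edgeR, BH-adjusted p = 0.0946).

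DCN and COL1A1 also stand in the list of fibroblast, muscle, fat and melanocyte markers, where 4 of 16 genes were tested. DCN alone was called, higher in EM2 (25.0% of those tested, against 6.71% of all genes). The summed TPM of that list was 10.6 to 22.7 in EM1 and 132 to 267 in EM2, most of it from DCN and COL1A1, and 3 of its genes were called without EM1 replicate 3 or EM2 replicate 3. The median log2 fold of the 4 tested genes was 2.30. COL3A1, another fibrillar collagen, was at 0.01, 0 and 0.16 TPM in EM1 and 0.10, 0.17 and 1.07 TPM in EM2, overlapped and was not called. Of the others, LUM, PDGFRA, PDGFRB, COL1A2, MYH11 and DES stayed at or under 0.23 TPM in all 6 libraries. Over the whole list, 11 of the 16 genes were under 1 TPM in all 6 libraries. Of 20 markers of blood, immune and endothelial cells, 5 were tested. Of these, 4 were higher in EM2 (80.0%, against 6.71% of all genes), CD68, CD14, HBA1 and TEK. PTPRC was at most 0.12 TPM, and CD3D, MS4A1, HBB and CLDN5 were at 0 in all 6 libraries. CD68, a lysosomal protein that epithelial cells also make, gave most of the summed level of this list, at most 96.6 TPM in EM1 and at least 119 TPM in EM2. Without either replicate 3 library the 4 calls became 1, CD68. HBA1 has a near-identical copy and is uncertain. The part of other cells in the matrix result was not tested.

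Among matrix proteases, 5 of 18 tested genes were higher (27.8%, against 6.71% of all genes) and 1 lower (5.6%, against 7.86%). The gelatinase MMP9 was at 0.14, 0.35 and 0.33 TPM in EM1 and 4.52, 7.97 and 9.04 TPM in EM2. MMP2 was at 6.88, 8.61 and 7.69 TPM in EM1 and 22.1, 36.9 and 13.1 TPM in EM2, and MMP14, the membrane protease that activates MMP2, had a log2 fold of 1.88. Each was higher in every EM2 library. MMP7, a protease of glandular epithelium, went the other way, from 4.65, 30.3 and 31.2 TPM to 0.78, 0.73 and 0.71 TPM (log2 fold -4.79 ± 0.81; edgeR, BH-adjusted p = 0.0164). The MMP7 call was lost without EM1 replicate 3 or any 1 of the EM2 libraries, and the count of higher proteases was 9 without EM2 replicate 2. MMP13 and ADAM12 were higher at low levels, under 3 TPM in each library.

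Of 11 tested integrins, the receptors for matrix, 3 were higher (27.3%, against 6.71% of all genes) and 0 lower. ITGB3, ITGB2 and ITGA4 had log2 folds of 4.52, 1.33 and 2.16, at levels under 6 TPM in each library. ITGB1, the common beta chain, averaged 592 ± 40.2 TPM (SD, n = 3) in EM1 and 631 ± 57.6 in EM2 and was not called. Without either replicate 3 library, 1 of the 3 integrin calls was left.

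**Figure D2:**
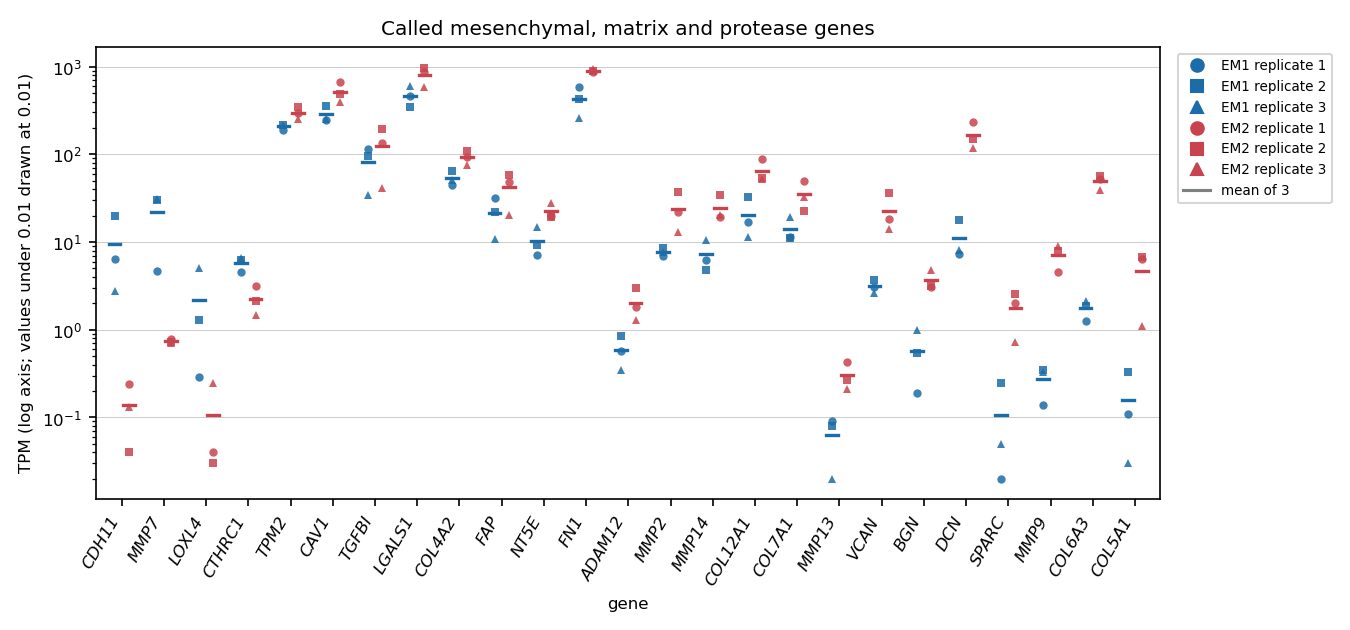
TPM (log axis, 1 symbol per replicate, bars at the mean of 3) of the called mesenchymal, matrix and protease genes, ordered by fold. CDH11, MMP7, LOXL4 and CTHRC1 at the left are lower in EM2 (red) than in EM1 (blue), and COL6A3 and COL5A1 at the right are the most raised.

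Markers of the mesenchymal state rose in part. Of 18 tested genes, 7 were higher in EM2 (38.9%, against 6.71% of all genes) and 1 lower (5.6%, against 7.86%). The median log2 fold was 0.50. Fibronectin (FN1), a matrix glycoprotein, was at 584, 430 and 261 TPM in EM1 and 865, 883 and 928 TPM in EM2, a log2 fold of 1.22 ± 0.24 (edgeR, BH-adjusted p = 0.0143). SPARC, a collagen-binding glycoprotein, rose from 8 to 160 summed counts. FAP, NT5E, LGALS1, CAV1 and TPM2 rose by log2 folds of 1.04, 1.16, 0.86, 0.73 and 0.58. The TPM2 call was lost without any 1 of the 6 libraries and the FN1 call without either replicate 3 library. The LGALS1 call was lost without replicate 1 or 2 of either clone, and the CAV1 call without replicate 1 or 3 of either clone. CDH11, a mesenchymal cadherin, was at 6.46, 19.6 and 2.77 TPM in EM1 and 0.24, 0.04 and 0.13 TPM in EM2. It fell by 6.74 on the log2 scale (edgeR, BH-adjusted p = 0.00484), although it is a marker of the state whose other called genes rose. The CDH11 call was lost without EM2 replicate 1. The count of higher genes was 4 without EM1 replicate 1, EM1 replicate 3, EM2 replicate 1 or EM2 replicate 3.

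Epithelial identity genes had 7 of 30 lower (23.3%, against 7.86% of all genes) and 1 higher (3.3%, against 6.71%), CLDN3, which stayed under 0.5 TPM and whose call was lost without any 1 of the 6 libraries. EPCAM, an epithelial adhesion protein, was at 452, 423 and 180 TPM in EM1 and 159, 183 and 107 TPM in EM2. EM2 replicate 2 lay just above EM1 replicate 3 there, and within each set every EM2 library was lower (log2 fold -1.05 ± 0.18; edgeR, BH-adjusted p = 0.00609). EHF, an epithelial ETS factor, was at 22.97, 12.6 and 9.04 TPM in EM1 and 0.85, 1.00 and 1.11 TPM in EM2. Keratin 19 (KRT19) was at 189, 180 and 295 TPM in EM1 and 21.2, 60.02 and 42.3 TPM in EM2. For both genes the clones did not overlap. The junction genes OCLN, MARVELD2 and CRB3 fell by 1.14, 0.70 and 0.88 on the log2 scale. Without either replicate 3 library the 7 became 3, which were EPCAM, OCLN and EHF.

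Basal and squamous genes were lower in 4 of 24 cases (16.7%, against 7.86% of all genes) and higher in 0, with KRT15, DSC3, DSG3 and JUP lower by log2 folds of -2.13, -1.53, -1.45 and -0.64. KRT5, the main basal keratin, was at 86.7, 159 and 231 TPM in EM1 and 112, 82.8 and 203 TPM in EM2 and was not called. DSC3 alone was called whichever library was left out. The 4 became 1 without EM1 replicate 3 and 2 without EM1 replicate 1 or 2 or EM2 replicate 3.

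Transcription factors of EMT split by family member. Of 22 tested, 3 were higher (13.6%, against 6.71% of all genes) and 4 lower (18.2%, against 7.86%). TWIST2 was at 2.64, 2.50 and 2.60 TPM in EM1 and 14.5, 14.6 and 12.4 TPM in EM2, a log2 fold of 2.48 ± 0.20 (edgeR, BH-adjusted p = 0.000276). Its relative TWIST1 was at 17.8, 15.4 and 11.7 TPM in EM1 and 12.8, 45.1 and 11.2 TPM in EM2, overlapped and was not called. FOXC2 rose from 19 to 1214 summed counts.

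ZEB2 rose by a log2 fold of 1.39, while ZEB1 was under 2 TPM in all 6 libraries and was not called. SNAI2 was at 38.3, 41.0 and 84.7 TPM in EM1 and 26.7, 24.2 and 60.1 TPM in EM2 and was lower (log2 fold -0.61 ± 0.14; edgeR, BH-adjusted p = 0.0242). SNAI1 was at 2.00, 1.73 and 7.74 TPM in EM1 and 7.00, 28.5 and 15.9 TPM in EM2, overlapped and was not called (edgeR, BH-adjusted p = 0.0659). SOX9, GATA3 and FOXA1, factors of mammary epithelium, were lower by log2 folds of -0.77, -0.63 and -0.83. The SNAI2 and GATA3 calls were lost without any 1 of the 6 libraries, and the ZEB2 call without either replicate 3 library. The 4 lower calls were 1 or 2 with any library left out.

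Secreted signals and receptors changed gene by gene. Among growth factor ligands and receptors, 9 of 30 were higher (30.0%, against 6.71% of all genes) and 2 lower (6.7%, against 7.86%). EREG, an EGF receptor ligand, was at 43.3, 56.0 and 86.2 TPM in EM1 and 92.4, 93.0 and 188 TPM in EM2. IGFBP4, which binds insulin-like growth factors, was at 9.09, 8.10 and 13.8 TPM in EM1 and 38.6, 42.3 and 35.4 TPM in EM2. Every EM2 library was above EM1 for both. IGFBP7 had 1 summed count in EM1 and 299 in EM2, and INSR, the insulin receptor, 6 and 222.

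FGFR1, a receptor for fibroblast growth factors, was higher (log2 fold 1.71 ± 0.21; edgeR, BH-adjusted p = 0.00183) at 10.9, 5.05 and 5.50 TPM in EM1 and 8.49, 9.04 and 23.3 TPM in EM2, which overlap. Its relative FGFR2 was lower. FGFR2 was at 1.53, 5.77 and 3.47 TPM in EM1 and 0.11, 0.10 and 0.05 TPM in EM2. FGFBP1, a carrier of FGF, fell by 2.73 on the log2 scale, and its call was lost without EM1 replicate 2 or EM2 replicate 1. IGFBP2, IGFBP3, PDGFD and EPHB2 were the other higher genes. The IGFBP3 and PDGFD calls were each lost without 5 of the 6 libraries taken in turn, and the EREG call without EM1 replicate 1 or 3 or EM2 replicate 3.

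In the WNT list 4 of 23 were higher (17.4%, against 6.71% of all genes) and 1 lower (4.3%, against 7.86%). WNT5A, a ligand of the beta-catenin-independent branch, was at 11.3, 12.4 and 3.25 TPM in EM1 and 44.0, 55.7 and 20.8 TPM in EM2, a log2 fold of 2.36 ± 0.20 (edgeR, BH-adjusted p = 0.00036). WNT11, DKK3 and TCF7 were higher at levels under 5 TPM, and the ligase ZNRF3 was lower. In the TGF-beta and BMP list 4 of 29 were higher (13.8%, against 6.71% of all genes), TGFB1, LTBP1, LTBP3 and ID4. TGFBR1 and SMAD2 were lower (6.9%, against 7.86%). LTBP1, which stores latent TGF-beta in the matrix, was at 2.74, 3.44 and 3.48 TPM in EM1 and 9.07, 11.97 and 15.7 TPM in EM2. WNT5A and LTBP1 were the calls that survived every library left out, and the others of both lists were lost without 1 or more libraries.

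Most inflammatory and interferon genes, like most genes tested, missed the threshold. Of 26 interferon-response genes, 2 were higher (7.7%, against 6.71% of all genes) and 4 lower (15.4%, against 7.86%). The median log2 fold was 0.08. IFI27, an interferon-induced mitochondrial protein, was the extreme one, at 99.2, 35.6 and 77.6 TPM in EM1 and 0.36, 0.63 and 0.10 TPM in EM2. The log2 fold was -6.87 ± 0.42 (edgeR, BH-adjusted p = 9.01e-05). OAS1, which senses double-stranded RNA, had 3 summed counts in EM1 and 166 in EM2. ISG15 was not called. IFI44, IFIH1 and CMPK2 were lower and BST2 higher, and these 4 calls were lost without either replicate 3 library. Of 15 antigen presentation genes, 1 was higher (6.7%, against 6.71% of all genes) and 0 lower.

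Among 27 cytokines and related genes, CSF1 and CSF3 were higher (7.4%, against 6.71% of all genes). IL1RN, IL18 and LCN2 were lower (11.1%, against 7.86%). LCN2, which binds iron carriers of bacteria, was at 296, 247 and 390 TPM in EM1 and 46.6, 41.9 and 104 TPM in EM2. The neutrophil chemokine CXCL8 was at 31.0, 171 and 278 TPM in EM1 and 95.7, 8.19 and 622 TPM in EM2. The EM1 libraries lay within the range of EM2, and it was not called. CSF1 and LCN2 were called whichever library was left out, and without either replicate 3 library they were the only called genes of this list. Of 25 AP-1 and immediate-early genes, 6 were lower (24.0%, against 7.86% of all genes) and 0 higher: JUND, ATF3, EGR1, DUSP6, SPRED2 and MYC. JUND, an AP-1 subunit, was at 41.4, 38.7 and 90.5 TPM in EM1 and 14.2, 22.3 and 23.6 TPM in EM2. Without either replicate 3 library 1 of the 6 was left, SPRED2.

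Of 32 cell cycle genes tested, 3 were higher (9.4%, against 6.71% of all genes) and 1 lower (3.1%, against 7.86%). MKI67, a marker of cycling cells, was at 68.2, 54.3 and 34.1 TPM in EM1 and 49.1, 72.02 and 28.0 TPM in EM2, with a log2 fold of -0.01 ± 0.17. PCNA, the polymerase clamp, was at 105, 100 and 58.0 TPM in EM1 and 206, 198 and 121 TPM in EM2 (log2 fold 1.09 ± 0.14; edgeR, BH-adjusted p = 0.0018). E2F1 and MCM5 were the other higher genes and FOXM1 the lower one. The FOXM1 call was lost without EM1 replicate 1, 2 or 3 or EM2 replicate 3. The MCM5 call was lost without EM1 replicate 1, 2 or 3 or EM2 replicate 1 or 3. PCNA and E2F1 both lie on chromosome 20, described below.

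Of the pair of surface markers used to sort breast cancer cells, CD24 and CD44, the CD24 transcript was lower. It was at 94.5, 101 and 95.0 TPM in EM1 and 37.9, 32.7 and 44.8 TPM in EM2, a log2 fold of -1.39 ± 0.18 (edgeR, BH-adjusted p = 0.00218). CD44 was at 1480, 1852 and 1742 TPM in EM1 and 1522, 1276 and 1597 TPM in EM2 and was not called. In the whole stem and progenitor list 3 of 10 tested genes were lower (30.0%, against 7.86% of all genes). PROCR was the 1 higher gene (10%, against 6.71%), and its call was lost without replicate 2 or 3 of either clone. Hypoxia and glycolysis genes had 1 of 28 higher, VEGFA (3.6%, against 6.71% of all genes), and 2 lower (7.1%, against 7.86%). The brain-type aldolase ALDOC was one of these, at 9.48, 7.88 and 33.6 TPM in EM1 and 0.19, 0.44 and 0.17 TPM in EM2, while GAPDH was not called. The VEGFA call was lost without replicate 2 or 3 of either clone. Of 19 YAP and TEAD targets, NT5E was higher (5.3%, against 6.71% of all genes) and TEAD4 and WWTR1 lower (10.5%, against 7.86%). NT5E alone of these was called whichever library was left out. Among 15 S100 and keratin stress genes, S100A9 and S100A13 were higher (13.3%, against 6.71% of all genes). Their log2 folds were 4.21 and 0.76. Histone and mitochondrial transcripts, kept as signs of RNA quality, had 1 of 18 called (H2BC5, higher, 5.6% against 6.71% of all genes). Their median log2 fold was 0.06.

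**Figure D3:**
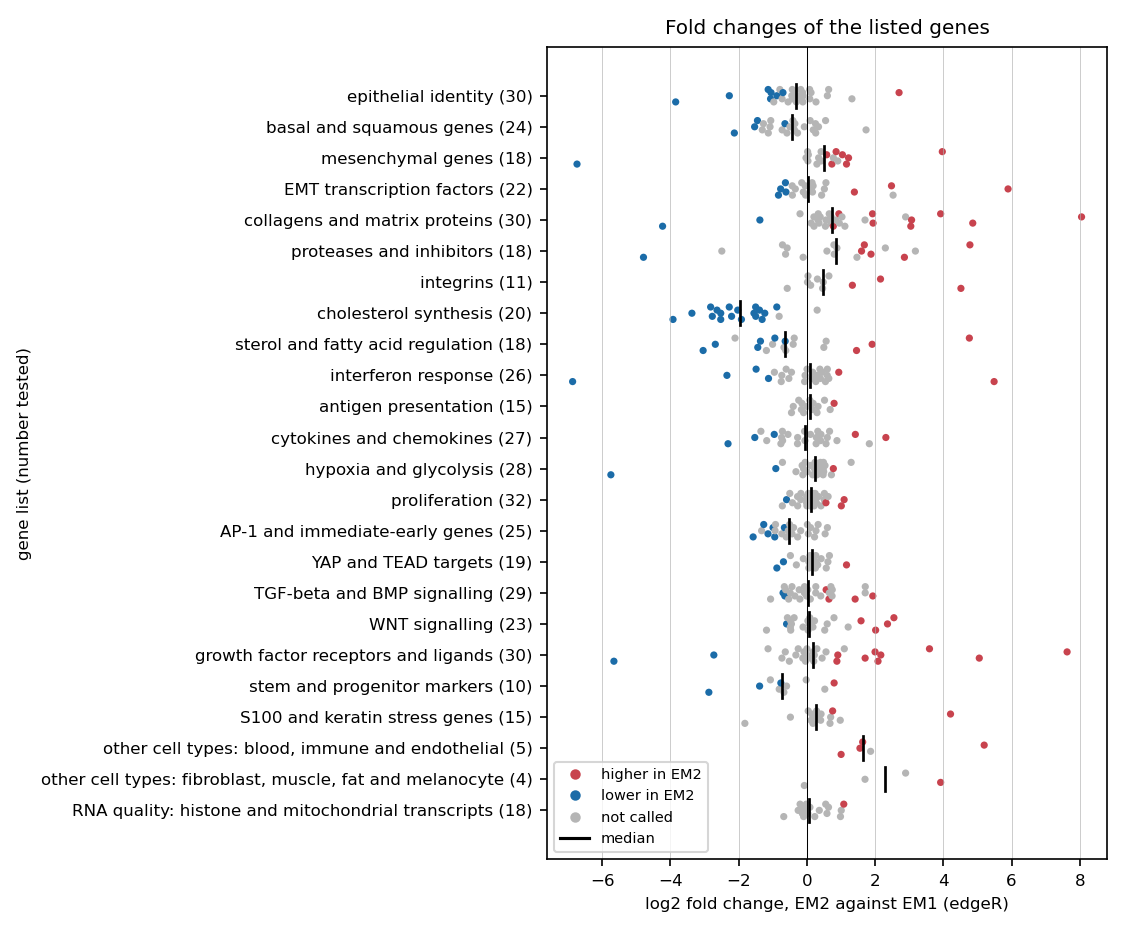
Log2 fold change of EM2 against EM1 for each tested gene of the 24 gene lists (x axis), with red points higher, blue points lower and grey points not called; black bars are list medians. The cholesterol synthesis list lies almost wholly to the left with a median of -1.97, and the other medians below 0 are -0.72 or nearer to 0.

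Among the largest differences were genes undetected in EM1 and expressed in EM2. TBX3, a T-box factor of mammary development on chromosome 12, had 0 counts in all 3 EM1 libraries and was at 17.01, 8.40 and 33.1 TPM in EM2, at least 2221-fold higher when EM1 is set to a floor of 3 counts over its 3 libraries. CMBL, a hydrolase, and SOD3, the extracellular superoxide dismutase, were also at 0 in EM1 and at least 758-fold and 98-fold higher. In M1 and M2, TBX3 averaged 63.5 and 20.3 TPM, beside at most 0.10 TPM in E, EM3 and Parental. CMBL averaged 1.35 TPM in E, 1.46 in Parental, 0.01 in EM3, 6.78 in M1 and 21.53 in M2. SOD3 was at 0 in all libraries of the 6 other lines. Across all genes tested, 15 called genes had no count in EM1 and 14 had none in EM2.

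Other raised genes were expressed at a trace in EM1. B3GAT1, which makes the CD57 sugar epitope, and its neighbour GLB1L2 on chromosome 11 went from 6 and 2 summed counts in EM1 to 3047 and 1272 in EM2. PODXL2, a sialomucin, went from 2 to 1068, and SLC6A11, a GABA transporter, from 3 to 1036. These genes were not raised in EM2 alone. In E and Parental, B3GAT1 averaged 1.62 and 0.86 TPM, GLB1L2 0.92 and 0.51, and SLC6A11 4.14 and 1.37. PODXL2 averaged 0.02 TPM in E and 2.45 TPM in Parental. All 12 of the most raised genes kept their call in the alternatives run, each library left out included.

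Other genes were expressed in EM1 and at or near 0 in EM2. HORMAD1, a meiotic chromosome protein made in some tumours, was at 6.98, 9.80 and 1.85 TPM in EM1 and had 0 counts in EM2, at least 246-fold lower. PRKAA2, a catalytic subunit of the AMP-activated kinase, went from 1611 summed counts to 1, and ZNF711 from 1858 to 1. TDRD5, SLCO4C1 and ARMCX6 had 0 counts in EM2 and were at least 91-fold, 98-fold and 158-fold lower. ARSD and ZNF486 had 2 counts each in EM2. ARMCX6, ARSD and ZNF486 averaged 0.05, 0.16 and 0.01 TPM in E, and 3.07, 1.02 and 0.19 TPM in Parental. HORMAD1, PRKAA2 and ZNF711 averaged 2.01, 0.80 and 3.28 TPM in E, and 5.44, 1.00 and 2.59 TPM in Parental. TDRD5 and SLCO4C1 averaged 0.21 and 0.11 TPM in E, and 0.64 and 0.04 TPM in Parental. Genes of the ZNF, BEX and ARMCX families have close copies that share reads, and the counting setting for strand is not given in the sources used here, so partners on opposite strands cannot be told apart.

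Several of these genes lay side by side. A run was defined as 4 or more neighbouring tested genes all called in one direction. There were 18 runs with 109 higher genes and 38 runs with 207 lower genes. Of all genes tested, 6.71% were higher and 7.86% lower, and how many runs such shares alone would give was not tested. Gene positions are those of GENCODE 29 on GRCh38.

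One run of 7 higher genes lay on chromosome 9 between 25676389 and 27573866 and held TUSC1, CAAP1, PLAA, IFT74, TEK, MOB3B and C9orf72. PLAA, which acts in ubiquitin turnover, was at 0, 0.01 and 0 TPM in EM1 and 15.9, 16.9 and 12.9 TPM in EM2. IFT74, a part of the transport machine of cilia, was at 0.01, 0 and 0 TPM in EM1 and 11.3, 12.3 and 9.08 TPM in EM2. Each of the 7 genes had 3 or fewer summed counts in EM1. In EM3, E and Parental the line means of these 7 genes were at most 0.07 TPM, while M1 and M2 averaged 19.3 and 34.5 TPM for PLAA. The neighbours CDKN2A, CDKN2B and MTAP nearer the chromosome end had 1 or 0 summed counts in both clones. Further out, FOCAD and KLHL9 were expressed in both clones and lower in EM2 (log2 folds of -0.74 and -0.79).

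The opposite run lay on chromosome X between 103062651 and 103378077 and held BEX1, BEX4, TCEAL8, BEX2, TCEAL9 and BEX3. BEX1, BEX3 and TCEAL9 were at 28.5 to 44.6 TPM in EM1 and at or under 0.15 TPM in EM2. BEX4 had 77 counts in EM1 and 0 in EM2. TCEAL8 was lowered but present, at 73.1, 57.7 and 58.4 TPM in EM1 and 14.3, 23.5 and 11.7 TPM in EM2. EM3 averaged 52.7 TPM for BEX1 and 46.8 TPM for BEX3. BEX1 averaged 1.61 and 0.02 TPM in M1 and M2, and 1.16 and 3.03 TPM in E and Parental. In M1 and M2, BEX3 averaged 44.28 and 3.28 TPM, and TCEAL9 60.04 and 19.75 TPM. In E and Parental, BEX3 averaged 24.16 and 25.46 TPM, and TCEAL9 9.56 and 13.93 TPM.

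Over whole chromosomes the calls were uneven. On chromosome 18, 96 of 238 tested genes were lower in EM2 (40.3%, against 7.86% of all genes) and 2 higher, with a median log2 fold of -0.64. The median there was -0.65 in replicates 1 and 2 and -0.43 in the replicate 3 pair. One run of 11 lower genes on this chromosome, between 58671386 and 62391292, held MALT1, PMAIP1 and TNFRSF11A. PMAIP1, which encodes the cell death protein NOXA, was at 26.3, 23.5 and 16.5 TPM in EM1 and 8.09, 9.63 and 8.17 TPM in EM2. The 96 became 53 without either replicate 3 library and 54 without EM1 replicate 1.

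Chromosome 17 had 174 of 942 genes higher (18.5%, against 6.71% of all genes) and chromosome 20 had 70 of 409 (17.1%). On chromosome 17, ERAL1, FLOT2, DHRS13, PHF12 and MYO18A formed a run, with NUFIP2, TAOK1 and TP53I13 close by. ERAL1, a mitochondrial ribosome factor, was at 19.1, 19.9 and 24.0 TPM in EM1 and 69.4, 63.8 and 76.1 TPM in EM2. On chromosome 20, a run of 11 genes from SNRPB to FASTKD5 was higher by a median log2 fold of 1.28. SNRPB, a core splicing protein, was at 88.4, 90.5 and 103 TPM in EM1 and 248.5, 199 and 223 TPM in EM2, and its mean was 86.8 TPM in EM3 and 181 to 205 TPM in E, Parental, M1 and M2. Chromosomes 9 and 3 had 16.8% and 16.2% of genes lower (107 and 143 genes, against 7.86% of all genes). Chromosome 7 had 96 of 797 genes higher (12%, against 6.71% of all genes). Without the replicate 3 library of EM1 these 3 counts became 30, 47 and 34, without that of EM2 30, 48 and 31, and without EM1 replicate 1 they became 52, 80 and 36. Without EM2 replicate 1 they became 67, 91 and 45. The chromosome 7 count was also 54 without EM1 replicate 2. The 174 became 73 without EM1 replicate 3, 74 without EM2 replicate 3 and 86 without EM1 replicate 1, and the 70 became 38 and 37 without the replicate 3 libraries of EM1 and EM2. DNA copy number was not measured in these files, and its part in these counts was not tested.

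**Figure D4:**
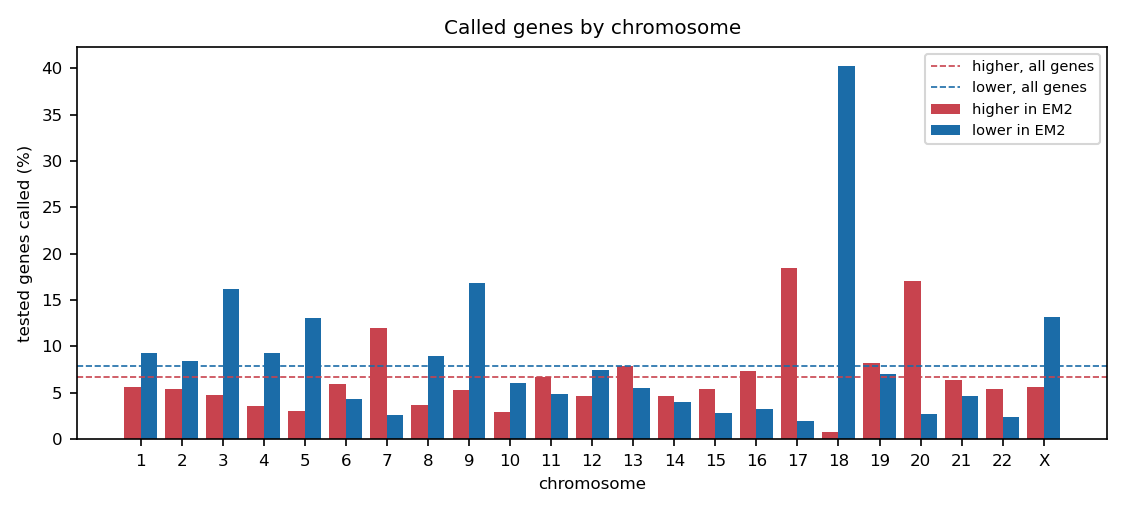
Percent of tested genes called higher (red bars) or lower (blue bars) in EM2 on each chromosome, with dashed lines at the percentages over all genes (6.71 and 7.86). Chromosome 18 has the tallest blue bar (40.3%), and chromosomes 17 and 20 have the tallest red bars (18.5% and 17.1%).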

How the data were processed

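The 6 libraries of poly(A) RNA from the clones EM1 and EM2 were compared. Per the submitters' processing notes, the tools were bcl2fastq 2.20.0.422, cutadapt 2.4, STAR 2.7.2b and RSEM 1.3.2 with build hg38; the annotation and the strand setting are not given in the sources used here. Per the file headers, the authors deposited for each gene an expected count, a TPM and an effective length. Other values (the effective length in bases) were used only as deposited, to compare libraries. The TPM values the authors deposited depend on effective length, while the tests rest on the counts, so a ratio of TPM can differ from the tested fold. Expected counts were rounded and tested with edgeR 4.0.16 in R 4.3.3 (TMM scaling, default low-count filter by clone, robust quasi-likelihood, replicate 3 against replicates 1 and 2 as a term, 3 residual degrees of freedom, common biological coefficient of variation 0.233), with BH adjustment over 16025 genes. The fits were tested on simulated data. Tables held 60617 genes, of which 60261 had a symbol and 58542 a position in GENCODE 29.

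Named genes were the 12 largest called changes in each direction (protein-coding, mean CPM of at least 1, clones not overlapping in TPM), members of 24 fixed lists with 593 entries, and genes of runs. Members and lists were chosen with earlier results of these data known. Alternatives were no batch term, the replicate number as a block, all 21 libraries, replicates 1 and 2 alone, other filters, DESeq2 1.42.0, limma 3.58.1, a fold threshold and each library left out. Differences within a set used log2(CPM + 0.5), and promoter sequences came from RefSeq. Figures were drawn with matplotlib 3.10.9. Some genes of these lists are counted but not reported by name here.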

Additional observations from a re-analysis of the deposited data

How the results depend on the processing

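The count of 2335 calls (1076 higher, 1259 lower) depended on the design more than on scaling. Without a batch term it was 617 (292 and 325), and with replicates 1 and 2 only 983 (438 and 545). Without a low-count filter it was 3609 (1878 higher), with TPM values tested by limma 897 (336 and 561) and with a fold of at least 2 required 419 (192 and 227). With 1 library left out it ranged from 906 to 2354, with 406 to 987 higher and 486 to 1367 lower. The interaction test called 64 genes without the low-count filter. The share of calls that were higher was 46.1%, and 37.5% when TPM was tested. Scaling by DESeq2, its Wald test, limma-voom, a mean CPM of at least 1 and all 21 libraries gave 2334, 3351, 2382, 2069 and 2817 calls. Of 158 single genes checked, 0 changed direction in the alternatives run, 54 kept their call in each of them and 78 with any 1 library left out.

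With the replicate number as a block in place of the library set there were 1526 calls (683 higher and 843 lower). Same-number libraries of EM1 and EM2 deviated together with correlations of 0.12, 0.08 and 0.71, and EM1 replicates 1 and 2 each correlated best with the other number (0.64 and 0.34), and the numbers were not used as a pairing. The 3 replicates a clone and 3 residual degrees of freedom limit what can be called, and genes under the low-count filter were not tested.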
